A study of Rattus norvegicus with 35 samples.

Results

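The genes described here carry glucose into the heart cell, break it down to pyruvate and lactate, and store it as glycogen or release it from that store. Of 39 genes listed by name, 36 had a symbol in the probe annotation, among 13337 annotated genes in all: 2 of glucose uptake, 19 of glycolysis, 6 of lactate and pyruvate handling and 9 of glycogen metabolism. Hk1, Pgam1 and Gys1 were not found there by symbol and were not analysed here. The samples were cardiac left ventricles of male Wistar rats, whose age the labels do not give. The ligated animals had the abdominal aorta tied off to bring on cardiac hypertrophy, and the sham animals had the sham operation. Hearts were taken 1, 6 and 42 days later, from 6 ligated and 6 sham animals at day 1, 5 ligated and 6 sham at day 6, and 6 ligated and 6 sham at day 42. RNA came from whole ventricular tissue, so that in these bulk samples fewer cells of a type and less RNA per cell cannot be told apart.

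The heart takes up glucose through transporters of the Slc2a family, of which Slc2a4 moves to the cell surface in response to insulin. Hexokinase traps the sugar as glucose 6-phosphate, which enters either glycolysis or glycogen. Several steps of glycolysis exist as isoenzymes, with muscle forms such as Pfkm, Pgam2 and Eno3 that are typical of adult heart and skeletal muscle, and forms found in many other tissues. The adult heart draws most of its energy from fatty acids, and a shift towards glucose is a well-known feature of hypertrophied heart.

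All 7 annotated cardiomyocyte markers of a list of 8 were detected and tested on each day, and 0 of them passed the test in limma on any day, with 0, 1 and 0 at an unadjusted p under 0.05 at days 1, 6 and 42. Their summed level ran between 144131 and 182517 units in ligated hearts and between 165383 and 183771 in sham hearts at day 1. Of Nppa, Nppb and Timp1, genes known to rise under pressure load, 2 of 3 were higher in ligated hearts at day 1, 3 of 3 at day 6 and 3 of 3 at day 42. The arrays detected between 32.8% and 40.3% of probes. Each day lay on its own BeadChip, so levels are compared only within a day, and at days 1 and 42 the position on the chip and the operation cannot be told apart. At day 6 ligated replicates 1 and 2 were the only ligated arrays at positions A to F, with sham replicates 1 to 3. The other arrays of day 6 lay at positions G to L. Levels below are log2 intensities after normalisation, fold changes are ligated over sham on the log2 scale with their standard error, and a gene is said to have risen or fallen where limma's p-value, after Benjamini-Hochberg adjustment across every probe of that day's test, was under 0.05.

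At day 1, 15 of the 32 genes tested fell in ligated hearts and 3 rose, and every step of the pathway held genes that fell. The background over all 8236 probes was 15.6% lower and 13.1% higher, against 46.9% and 9.38% of the glucose and glycogen genes. Their median log2 fold change was -0.31, against -0.03 over all probes. The groups did not overlap for 8 genes that were lower in ligated hearts and 1 that was higher, with a background of 5.43% and 4.63%. At day 6, 6 of 32 genes fell and 3 rose, against a background of 5.91% and 5.44% of probes, and the median was -0.14 against -0.04 over all probes. The groups did not overlap for 5 lower and 2 higher genes there (background 3.91% and 4.22%). At day 42, 4 of 31 genes fell and 2 rose, against a background of 7.76% and 7.33%, and the median was -0.12 against -0.01. No step of glycolysis itself passed the test at day 42, where the groups did not overlap for 1 lower and 1 higher gene (background 2.61% and 3.22%).

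These counts depend on how the arrays are scaled. With median scaling in place of quantile normalisation, the median of all probes shifted to 0.20 at day 1. There 6 of 32 genes were called lower and 7 higher, against 3.98% and 20.8% of all probes, so the share higher lay near the background. Of all calls, 83.9% were higher in place of 45.6%. At day 42 the median of all probes shifted to -0.47. There 20 of 31 genes were called lower and 0 higher, against 55.4% and 0.97% of all probes, with 1.72% of all calls higher in place of 48.6%. At day 6, 2 of 32 genes were called lower and 1 higher, against 0.966% and 0.589% of all probes, with 37.9% of all calls higher in place of 47.9%. The arrays themselves differed in brightness at day 42, where the 75th percentile of scanner intensity averaged 206 ± 36.9 units in ligated hearts and 293 ± 30.5 in sham hearts (SD, n = 6 each, two-sided exact permutation test, adjusted p = 0.013). It averaged 253.8 ± 41.3 in ligated hearts and 219.6 ± 19.4 in sham hearts at day 1 (adjusted p = 0.156, exact permutation test), and 279.8 ± 86.7 in ligated hearts and 268 ± 35.4 in sham hearts at day 6 (adjusted p = 0.762, exact permutation test). In the plot of median effects under each scaling, the median of the glucose and glycogen genes lay below that of all probes under every processing drawn, on each day.

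**Figure D1:**
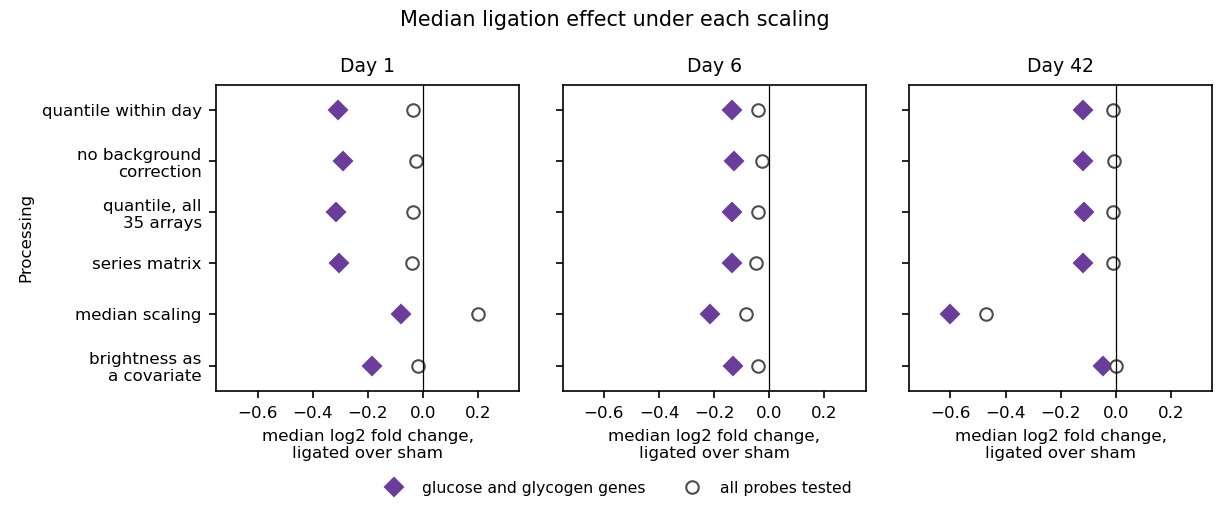
Median log2 fold change, ligated over sham (x axis), under 6 ways of processing (y axis, one row each) at days 1, 6 and 42. Diamonds are the glucose and glycogen genes tested and open circles are all probes tested; median scaling moves the median of all probes to 0.20 at day 1 and to -0.47 at day 42.

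**Figure D2:**
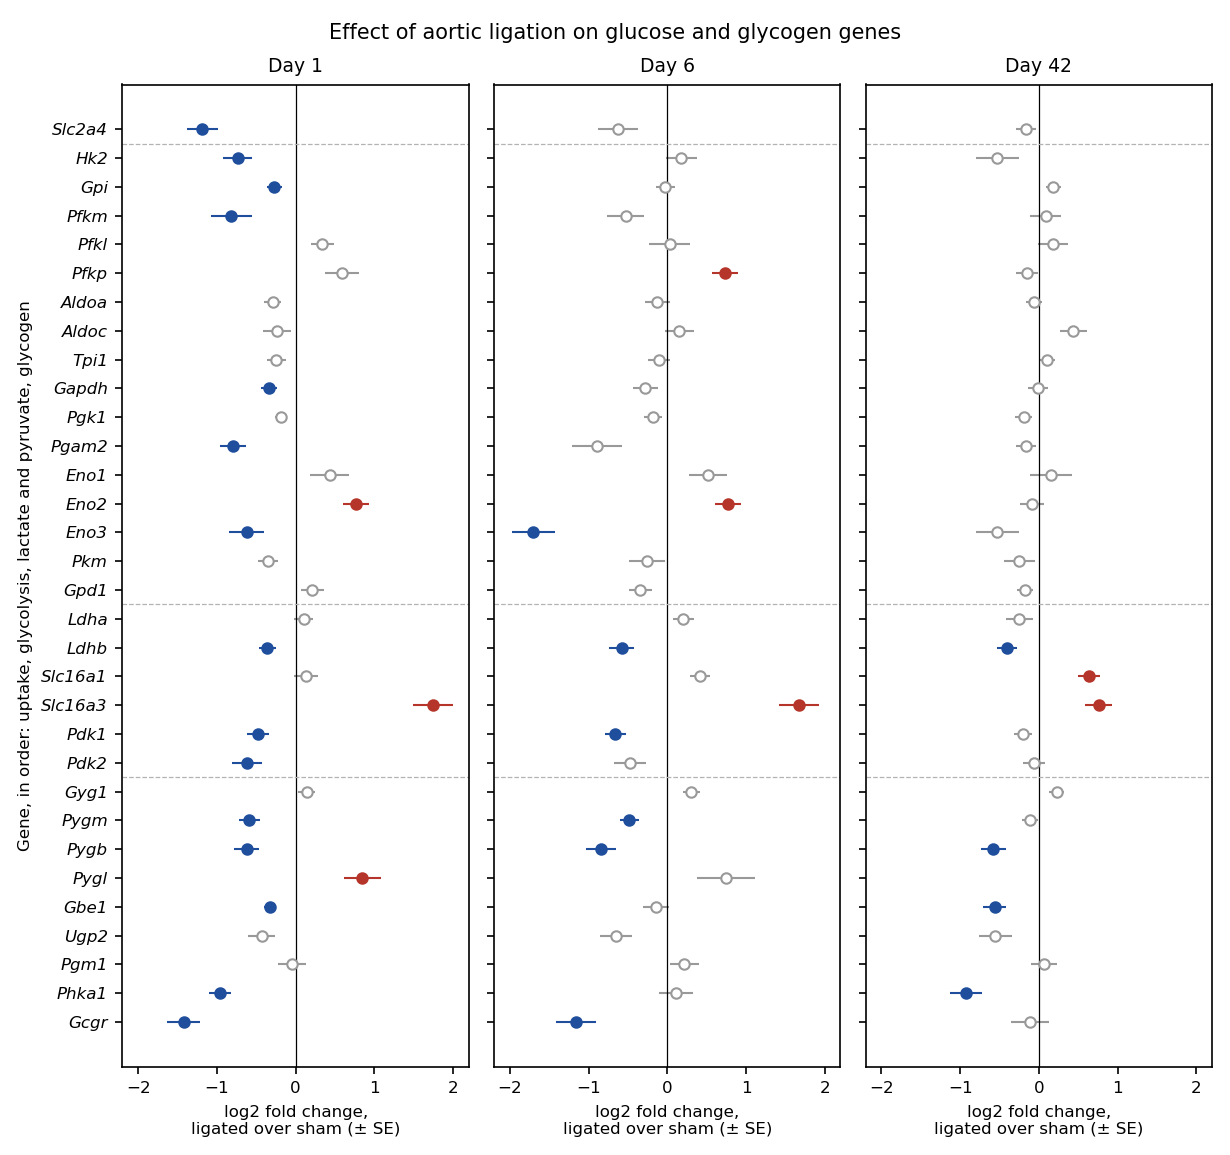
Log2 fold change, ligated over sham, of each gene tested (x axis, with its standard error as a bar) by gene (y axis), with dashed lines between uptake, glycolysis, lactate and pyruvate, and glycogen. Filled blue points fell and filled red points rose at an adjusted p under 0.05, and open grey points did not pass; 18 genes are filled at day 1, 9 at day 6 and 6 at day 42. Under median scaling the sign turns for Gpi, Pfkm, Pfkl, Tpi1, Eno1, Gyg1 and Pgm1 at day 42, for Pgk1 and Pgm1 at day 1 and for Pfkl at day 6, none of them filled in those panels.

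Of the glucose transporters, Slc2a1, the basal transporter, was detected on 0 of 35 arrays and was not tested. Slc2a4, the insulin-responsive transporter, had a lowest, median and highest level of 9.58, 10.36 and 10.96 in ligated hearts at day 1, against 11.18, 11.54 and 11.81 in sham hearts. Every ligated heart lay below every sham heart. The difference was -1.19 ± 0.20, or 2.27-fold lower in ligated hearts (adjusted p = 0.00153), and it passed under all 9 alternatives and without each array in turn. At day 6 the 5 ligated hearts had 10.99, 10.52, 12.05, 12.01 and 11.70, against 11.83 as the lowest and 12.46 as the highest sham value. Ligated replicates 1 and 2 lay clearly below the sham range and the other 3 lay within it or just under it (-0.62 ± 0.25, adjusted p = 0.126). After 42 days the ligated hearts ran from 11.66 through a median of 11.89 to 12.29, and the sham hearts from 11.90 through 12.14 to 12.38, with wide overlap (-0.16 ± 0.13, adjusted p = 0.398).

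In glycolysis, 6 of 16 genes tested fell at day 1 and 1 rose, 1 fell and 2 rose at day 6, and 0 passed at day 42, where 1 had an unadjusted p under 0.05. Over all probes, 15.6% were called lower and 13.1% higher at day 1, 5.91% and 5.44% at day 6, and 7.76% and 7.33% at day 42. These shares are also the background for the lactate and glycogen counts below. The share of glycolysis genes that fell at day 6 lay near them. The genes that fell at day 1 were Hk2, Gpi, Pfkm, Gapdh, Pgam2 and Eno3. Pfkfb1, Pfkfb2 and Pfkfb3, which make and remove the activator of phosphofructokinase, were detected on at most 1 array of any group and were not tested.

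Hk2, the insulin-responsive hexokinase of muscle, had 7.12, 7.67 and 8.12 in ligated hearts at day 1 (lowest, median, highest), against 7.95, 8.33 and 8.83 in sham hearts. The ranges overlapped slightly, and the difference was -0.74 ± 0.18, or 1.66-fold lower in ligated hearts (adjusted p = 0.0107; 0.153 under median scaling). At day 6 its ligated values were 8.70, 8.03, 9.23, 8.48 and 9.03, against 8.26, 8.47 and 8.98 in sham hearts, an overlap over nearly the whole range (0.18 ± 0.20, adjusted p = 0.59). By day 42 the ligated hearts had 6.70, 7.73 and 8.41 and the sham hearts 7.41, 8.32 and 8.59 (-0.53 ± 0.27, adjusted p = 0.192). Gpi, which turns glucose 6-phosphate into fructose 6-phosphate, fell by 0.27 on the log2 scale at day 1 (adjusted p = 0.0424), with 13.25, 13.48 and 13.59 in ligated hearts against 13.59, 13.71 and 13.87 in sham hearts. That call was lost without any of ligated replicates 1, 3 and 4 or sham replicates 1, 3, 5 and 6 (adjusted p up to 0.101). It was also lost with the series matrix values, under the replicate block, with brightness as a covariate and under median scaling, where the adjusted p was 0.727 and the difference -0.049. At day 42 Gpi stood at 13.77, 13.91 and 14.02 in ligated hearts and 13.46, 13.77 and 13.82 in sham hearts, and at day 6 its difference was -0.02 ± 0.12.

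Phosphofructokinase commits the sugar to glycolysis, and its 3 genes behaved differently. Pfkm, the muscle form, fell 1.76-fold at day 1 (-0.82 ± 0.26, adjusted p = 0.0305), a call lost without any of ligated replicates 1, 3 and 4 or sham replicates 1, 4 and 6 (adjusted p up to 0.0712), without the detection filter, and with brightness as a covariate, where the difference came down to -0.39 (adjusted p up to 0.191). Pfkp, the platelet form, had 10.72, 10.83, 10.54, 10.66 and 10.07 in ligated hearts at day 6, against 9.46, 9.88 and 10.21 as the lowest, median and highest in sham hearts. Only ligated replicate 5 lay within the sham range, and the gene rose 1.66-fold (0.73 ± 0.17, adjusted p = 0.0159; 0.359 as the highest over its alternatives, which lost the call under median scaling and under the replicate block). Its difference at day 1 was 0.59 ± 0.22 (adjusted p = 0.0571), with 9.44, 10.27 and 10.90 in ligated hearts against 9.45, 9.58 and 10.07 in sham hearts, and it passed without ligated replicate 5 or 6 or sham replicate 5 (log2 fold change up to 0.75). On day 42 the Pfkp values were 8.66, 9.09 and 9.50 in ligated hearts and 8.97, 9.24 and 9.41 in sham hearts, with no difference beyond the spread (adjusted p = 0.465). Pfkl, the liver form, did not pass on any day, with log2 fold changes between 0.03 and 0.34. At day 6 its sham values were 7.91, 7.74 and 7.83 at chip positions D to F and 9.03, 8.85 and 8.87 at positions J to L. The part of chip position in this split was not tested.

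The enzymes that split and oxidise the sugar showed small measured differences. Gapdh reached a normalised level of 15.17 at day 42 and Tpi1 15.16 at day 6. At such bright levels differences can be compressed, as for Ldhb below. Gapdh fell 1.26-fold at day 1 (-0.33 ± 0.10, adjusted p = 0.0287), a call lost under median scaling, with brightness as a covariate, and without any of ligated replicates 1, 3 and 4 or sham replicates 4, 5 and 6 (adjusted p up to 0.527). Aldoa and Aldoc (aldolases), Tpi1 (triose phosphate isomerase) and Pgk1 (phosphoglycerate kinase) did not pass on any day, with log2 fold changes between -0.29 for Aldoa at day 1 and 0.44 for Aldoc at day 42. Pgk1 had non-overlapping groups at day 1, between 13.09 and 13.28 in ligated hearts against 13.35 to 13.54 in sham hearts, with an adjusted p of 0.0824. Pkm, pyruvate kinase, had differences from -0.35 to -0.25 that did not pass, and Gpd1, which links glycolysis to glycerol, from -0.34 to 0.21.

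Pgam2, the muscle phosphoglycerate mutase, had 10.12, 10.56 and 11.03 in ligated hearts at day 1, against 11.04, 11.42 and 11.53 in sham hearts. The highest ligated heart lay just under the lowest sham heart, and the gene fell 1.74-fold (-0.80 ± 0.17, adjusted p = 0.00456), passing under all 9 alternatives. At day 6 the ligated values were 11.05, 9.75, 11.97, 11.84 and 11.16 against 11.77, 12.02 and 12.39 in sham hearts. Ligated replicate 2 stood far below the rest, and the difference of -0.90 ± 0.32 did not pass (adjusted p = 0.0814), though it did without ligated replicate 3 or 4, where it reached -1.10. At day 42 the difference was -0.17 ± 0.12.

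The enolases, which make phosphoenolpyruvate, went opposite ways. Their promoters are shown because the genes at the 2 extremes, Eno2 and Eno3, encode the same activity. They are RefSeq windows on GRCr8 of 300 bases, from 250 before to 50 after the start of the gene, 5′ to 3′ on the gene's strand, Eno2 at chr4:159267171-159267470 on the minus strand and Eno3 at chr10:55868936-55869235 on the plus strand. Capitals mark ACGTG or GCGTG read on either strand, the core letters of the hypoxia response element.
Eno2: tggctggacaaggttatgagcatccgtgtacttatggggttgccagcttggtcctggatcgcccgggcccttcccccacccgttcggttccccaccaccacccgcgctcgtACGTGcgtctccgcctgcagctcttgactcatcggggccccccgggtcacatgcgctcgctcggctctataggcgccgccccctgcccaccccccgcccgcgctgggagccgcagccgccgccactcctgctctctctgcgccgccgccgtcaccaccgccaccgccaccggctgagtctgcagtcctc
Eno3: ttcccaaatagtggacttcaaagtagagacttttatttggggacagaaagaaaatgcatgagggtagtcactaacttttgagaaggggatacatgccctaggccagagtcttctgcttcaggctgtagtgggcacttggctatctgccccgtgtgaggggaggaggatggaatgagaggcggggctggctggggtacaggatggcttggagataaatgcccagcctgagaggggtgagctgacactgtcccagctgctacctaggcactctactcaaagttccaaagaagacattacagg
The Eno2 window holds 1 such core and the Eno3 window 0.

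Eno2, the form best known from neurons, had 6.97, 7.58 and 7.93 in ligated hearts at day 1, against 6.43, 6.77 and 7.32 in sham hearts. The ranges overlapped at their edges, and it rose 1.70-fold (0.77 ± 0.17, adjusted p = 0.00569) and passed under all 9 alternatives. On day 6 its ligated values were 7.45, 7.90, 7.35, 7.41 and 7.19, all above the sham values of 6.31, 6.69 and 7.05 (lowest, median, highest), and it rose 1.71-fold (0.78 ± 0.17, adjusted p = 0.0134; 0.233 as the highest over its alternatives, lost under median scaling and the replicate block). By day 42 the groups overlapped throughout, at 6.34, 6.56 and 7.03 in ligated hearts and 6.46, 6.71 and 7.08 in sham hearts (adjusted p = 0.739).

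Eno3, the muscle enolase, showed the largest fall of any of these genes at day 6. Its ligated values were 10.40, 9.51, 11.24, 11.07 and 9.81, all below the sham values of 11.94, 12.05 and 12.38 (lowest, median, highest). The gap between the highest ligated and the lowest sham heart was clear, and the gene fell 3.25-fold (-1.70 ± 0.27, adjusted p = 0.00351), passing under all 10 alternatives and without each array in turn. At day 1 it had 9.72, 10.52 and 11.15 in ligated hearts against 10.52, 11.22 and 11.33 in sham hearts, and its call there (-0.62 ± 0.22, adjusted p = 0.0467) held under 3 of 9 alternatives. It was also lost without any of ligated replicates 2, 3, 4 and 5 or sham replicates 1, 2, 3, 4 and 6 (adjusted p up to 0.106). On day 42 the ligated hearts had 11.32, 11.66 and 12.28 and the sham hearts 11.03, 12.52 and 12.93, and the difference of -0.53 ± 0.27 did not pass, except without sham replicate 1 (-0.79) and under median scaling (-1.02). Eno1, the form of most tissues, had differences of 0.43 ± 0.25, 0.52 ± 0.24 and 0.16 ± 0.27 at days 1, 6 and 42, none of which passed. Macrophage markers moved with the day 6 changes: 7 of 7 tested were higher in ligated hearts there, with a summed level between 3648 and 14752 in ligated hearts and between 2456 and 3616 in sham hearts, against 2 of 7 higher at day 1 and 0 of 6 at day 42 (0 at an unadjusted p under 0.05). Markers of other cells moved too. Of 8 fibroblast markers tested, 2 (Col1a1 and Postn) were higher at day 6, with a summed level between 51552 and 100012 in ligated hearts and between 44522 and 63078 in sham hearts, as was the 1 smooth muscle marker tested, Tagln, of a list summing to between 468 and 1430 in ligated hearts and between 320.1 and 555 in sham hearts. At day 1 Tagln (1 of 1 tested), the fibroblast Postn (1 of 8), the endothelial Vwf (1 of 4) and the nerve marker Gap43 (1 of 1) were higher. Of the 4 endothelial markers 3 had log2 fold changes below 0, with a median of -0.11. Of the 8 fibroblast markers 3 lay below 0, with a median of 0.16. The adipocyte marker Fabp4 (1 of 2 tested, list sum 9235 to 16910 in ligated and 15696 to 18081 in sham hearts) and the erythroid Alas2 (1 of 3) were lower. At day 42 the fibroblast Col3a1 (1 of 8 tested) and the endothelial Tek (1 of 4) were lower in ligated hearts, and 0 markers of these 2 lists were higher. The part of any of these cells in the enolase, phosphofructokinase, transporter and other changes was not tested.

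**Figure D3:**
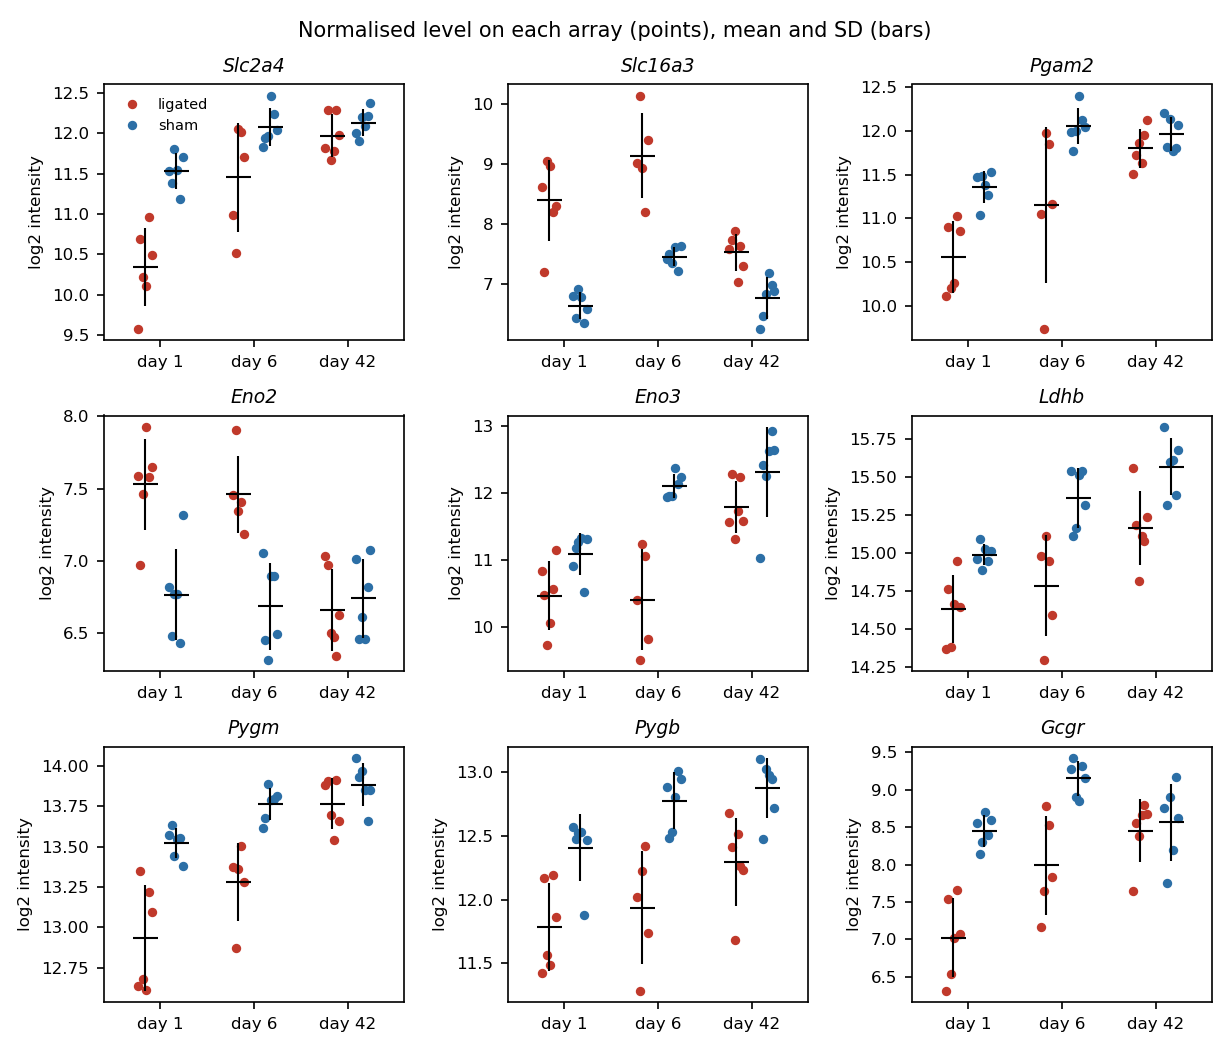
Normalised log2 intensity (y axis) of 9 genes on each array at days 1, 6 and 42 (x axis), ligated in red and sham in blue, with the mean as a horizontal mark and the SD as a bar. At day 6 all 5 ligated hearts lie below every sham heart for Eno3, Pygm, Pygb and Gcgr and above every sham heart for Slc16a3 and Eno2. The days lie on separate BeadChips, so only neighbouring ligated and sham points compare.

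Among the genes of lactate and pyruvate, 3 of 6 fell at day 1 and 1 rose, 2 fell and 1 rose at day 6, and 1 fell and 2 rose at day 42. Slc16a3, the monocarboxylate transporter MCT4 that carries lactate out of glycolytic cells, rose on every day and had the largest rise of all these genes at days 1 and 6. Slc16a1, the transporter MCT1 through which heart takes lactate up, rose at day 42. The promoter windows of both transporters are shown for comparison with those of the enolases, Slc16a3 at chr10:106712078-106712377 and Slc16a1 at chr2:194812410-194812709, both on the plus strand and with the same cores in capitals.
Slc16a3: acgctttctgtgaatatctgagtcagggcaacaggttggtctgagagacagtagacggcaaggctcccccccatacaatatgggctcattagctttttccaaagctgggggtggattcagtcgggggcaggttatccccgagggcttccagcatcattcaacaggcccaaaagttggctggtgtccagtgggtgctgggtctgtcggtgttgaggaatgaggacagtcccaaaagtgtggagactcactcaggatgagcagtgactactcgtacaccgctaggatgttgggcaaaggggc
Slc16a1: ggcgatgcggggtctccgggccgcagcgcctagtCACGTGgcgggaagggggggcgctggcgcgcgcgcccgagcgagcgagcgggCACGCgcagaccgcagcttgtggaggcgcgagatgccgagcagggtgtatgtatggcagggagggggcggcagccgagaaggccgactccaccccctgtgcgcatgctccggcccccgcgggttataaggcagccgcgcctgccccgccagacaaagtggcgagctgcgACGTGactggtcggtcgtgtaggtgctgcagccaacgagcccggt
The Slc16a3 window holds 0 cores, and the Slc16a1 window holds ACGTG at 3 places, counting both strands, 1 GCGTG and 1 CACGTG, which contains ACGTG on each strand.

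At day 1 Slc16a3 had 7.20, 8.45 and 9.05 in ligated hearts, against 6.34, 6.68 and 6.91 in sham hearts, with no overlap. It rose 3.36-fold (1.75 ± 0.25, adjusted p = 0.000835). By day 6 its ligated values were 9.01, 10.12, 8.92, 8.19 and 9.40, all above the sham values of 7.22, 7.45 and 7.63 (lowest, median, highest), a 3.20-fold rise (1.68 ± 0.26, adjusted p = 0.00278). Both calls passed under every alternative and without each array in turn. After 42 days the ligated hearts had 7.04, 7.60 and 7.89 and the sham hearts 6.25, 6.86 and 7.18, so that the ranges overlapped at their edges, and it rose 1.69-fold (0.76 ± 0.17, adjusted p = 0.0132; 0.391 as the highest over its alternatives).

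Slc16a1 at day 42 had 12.50, 12.77 and 13.25 in ligated hearts, against 11.98, 12.13 and 12.58 in sham hearts, with a small overlap, and it rose 1.56-fold (0.64 ± 0.14, adjusted p = 0.0106; 0.436 as the highest over its alternatives). Both transporter calls of day 42 were lost under median scaling and with brightness as a covariate. At day 6 the ligated values of Slc16a1 were 12.98, 12.70, 13.26, 13.10 and 13.16, against 12.48, 12.53 and 12.89 in sham hearts, a difference of 0.42 ± 0.13 that did not pass (adjusted p = 0.0513) but did without ligated replicate 2 or sham replicate 2 (up to 0.51). At day 1 it was 0.13 ± 0.15.

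Lactate dehydrogenase exists as 2 subunits. Ldha, which favours lactate formation, did not pass on any day. It had 12.84, 13.18 and 13.45 in ligated hearts at day 1 against 12.72, 13.09 and 13.29 in sham hearts, and 13.68, 13.68, 13.95, 13.57 and 13.95 in ligated hearts at day 6 against 13.17, 13.59 and 13.82 in sham hearts. At day 42 it had 12.05, 12.81 and 13.19 in ligated hearts and 12.78, 13.04 and 13.17 in sham hearts, and its differences of 0.10 ± 0.12, 0.20 ± 0.13 and -0.25 ± 0.17 were within the spread on the 3 days.

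Ldhb, the heart subunit, fell on all 3 days. It had 14.37, 14.66 and 14.95 in ligated hearts at day 1 against 14.89, 14.99 and 15.09 in sham hearts (-0.36 ± 0.11, adjusted p = 0.0224). At day 6 the ligated values were 14.98, 14.30, 15.11, 14.95 and 14.59 against 15.11, 15.42 and 15.54 in sham hearts (-0.58 ± 0.16, adjusted p = 0.0347), and at day 42 they were 14.82, 15.15 and 15.56 against 15.32, 15.61 and 15.83 (-0.41 ± 0.13, adjusted p = 0.047; difference 0.024 with brightness as a covariate, where the sign turned). The groups overlapped or met at their edges on each day. The call of day 1 was lost without ligated replicate 3 (adjusted p = 0.0532), that of day 6 without any of ligated replicates 2 and 5 or sham replicates 1, 4, 5 and 6 (up to 0.0799), and that of day 42 without any of ligated replicates 2 to 6 or sham replicates 1, 3, 4 and 6 (up to 0.0973). Median scaling and the brightness covariate also ended the call of day 1 (up to 0.357). Median scaling, the series matrix values, testing without the detection filter and the replicate block ended that of day 6 (up to 0.262), and brightness, the lack of a detection filter and quantile normalisation of all arrays together ended that of day 42 (up to 0.982). The probe averaged 14.84, 15.12 and 15.36 log2 units of scanner intensity at days 1, 6 and 42, near the top of the scanner's range, where differences can be compressed.

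Pyruvate dehydrogenase kinases switch off the entry of pyruvate into the mitochondrial cycle. Pdk1 had 11.35, 11.95 and 12.20 in ligated hearts at day 1, against 12.25, 12.32 and 12.49 in sham hearts, and the gene fell with no overlap (-0.48 ± 0.14, adjusted p = 0.0231), a call lost without ligated replicate 1 (adjusted p = 0.0503) and under median scaling and the brightness covariate, with values as small as -0.26 (adjusted p up to 0.187). At day 6 its ligated values were 12.08, 11.54, 12.31, 12.09 and 11.84, all below the sham values of 12.52, 12.63 and 12.80, a 1.58-fold fall (-0.66 ± 0.14, adjusted p = 0.0114; 0.149 under median scaling). At day 42 the difference was -0.20 ± 0.12. Pdk2 fell 1.54-fold at day 1 (-0.62 ± 0.19, adjusted p = 0.0272), a call lost without any of ligated replicates 1, 3 and 4 or sham replicate 1 (adjusted p up to 0.0623). That call was also lost under median scaling, without the detection filter and with brightness as a covariate, with values as small as -0.34 (adjusted p up to 0.17). Pdk2 did not pass at day 6 (-0.47 ± 0.20), except without ligated replicate 3, where it was -0.62.

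Of the glycogen genes, 5 of 9 fell at day 1 and 1 rose, 3 of 9 fell at day 6, and 3 of 8 fell at day 42. The muscle and brain glycogen phosphorylases, Pygm and Pygb, which release glucose units from the store, both fell at days 1 and 6. Pygm had 12.62, 12.89 and 13.35 in ligated hearts at day 1 against 13.38, 13.55 and 13.64 in sham hearts, and 13.37, 12.87, 13.36, 13.51 and 13.28 in ligated hearts at day 6 against 13.62, 13.79 and 13.89 in sham hearts. The groups did not overlap on either day. It fell 1.5-fold at day 1 (-0.59 ± 0.13, adjusted p = 0.0072, passing under all 9 alternatives) and 1.40-fold at day 6 (-0.48 ± 0.12, adjusted p = 0.0268). The day 6 call was lost under median scaling, under the replicate block, and without ligated replicate 5 or any of sham replicates 4, 5 and 6 (adjusted p up to 0.23). At day 42 Pygm had 13.54, 13.79 and 13.91 in ligated hearts and 13.66, 13.89 and 14.05 in sham hearts (-0.12 ± 0.10, adjusted p = 0.439).

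Pygb fell on all 3 days. It fell 1.54-fold at day 1 (-0.62 ± 0.16, adjusted p = 0.0132), with ligated hearts between 11.42 and 12.19 and sham hearts between 11.88 and 12.57, a call lost under median scaling and with brightness as a covariate (adjusted p up to 0.0838). By day 6 its ligated values were 12.02, 11.28, 12.22, 12.42 and 11.74, all below the sham values of 12.48, 12.85 and 13.01 (-0.84 ± 0.19, adjusted p = 0.0165; 0.109 under median scaling). On day 42 the ligated hearts had 11.68, 12.34 and 12.68 and the sham hearts 12.47, 12.96 and 13.10 (-0.58 ± 0.16, adjusted p = 0.0292; 0.993 with brightness as a covariate). The day 42 call was also lost without ligated replicate 5 or 6 or any of sham replicates 1, 3 and 4 (adjusted p up to 0.065). Pygl, the liver phosphorylase, was detected in 6 of 6 ligated and 3 of 6 sham hearts at day 1 and rose there 1.80-fold (0.85 ± 0.23, adjusted p = 0.0163), with ligated hearts between 6.22 and 7.27 and sham hearts between 5.23 and 6.68. With sham values partly below detection, the size of this rise is uncertain. The ligated arrays alone were enough for Pygl to pass the detection filter at day 1. The ligated values of Pygl at day 6 were 7.18, 8.41, 6.16, 6.08 and 5.99 against 5.72, 6.00 and 6.32 in sham hearts, a difference set by ligated replicates 1 and 2 that did not pass (adjusted p = 0.197). At day 42 it was detected in 0 of 6 ligated and 4 of 6 sham hearts and was not tested.

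Phka1, the muscle regulatory subunit of phosphorylase kinase, had 5.77, 6.02 and 6.55 in ligated hearts at day 1, where 3 of 6 arrays detected it, against 6.69, 7.04 and 7.36 in sham hearts, where 6 of 6 did. It fell with no overlap (-0.96 ± 0.14, adjusted p = 0.000889). At day 42 it had 5.12, 5.73 and 6.14 in ligated hearts (1 of 6 detected) against 6.15, 6.79 and 6.96 in sham hearts (6 of 6), again with no overlap (-0.93 ± 0.20, adjusted p = 0.0104; 0.618 with brightness as a covariate). The sham arrays alone were enough for Phka1 to pass the detection filter at days 1 and 42. With ligated values partly or mostly below detection, the sizes of these falls are uncertain. On day 6 the ligated values of Phka1 were 6.60, 5.80, 7.15, 6.67 and 7.26 against 6.29, 6.60 and 6.80 in sham hearts, spread on both sides of the sham range (0.11 ± 0.22).

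Gcgr, the glucagon receptor, through which glucagon raises cyclic AMP and glycogen breakdown, showed the largest fall of these genes at day 1. It had 6.31, 7.05 and 7.67 in ligated hearts, against 8.14, 8.48 and 8.71 in sham hearts, and fell 2.68-fold (-1.42 ± 0.21, adjusted p = 0.000841). At day 6 its ligated values were 7.17, 7.65, 8.79, 8.53 and 7.83, all below the sham values of 8.85, 9.21 and 9.42, a 2.24-fold fall (-1.16 ± 0.25, adjusted p = 0.0135; 0.0629 with the replicate block). A second probe of the gene fell too, by 1.5 at day 1 and by 1.3 at day 6 on the log2 scale. After 42 days the ligated hearts had 7.65, 8.61 and 8.80 and the sham hearts 7.76, 8.69 and 9.17, with wide overlap (-0.11 ± 0.24), and one more probe, not tested on the earlier days, gave 0.060.

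Gbe1, the branching enzyme of glycogen, lay between 9.37 and 9.44 in all 6 ligated hearts at day 1, with a median of 9.39, against 9.53, 9.75 and 9.83 in sham hearts (-0.32 ± 0.08, adjusted p = 0.00932; 0.634 as the highest over its alternatives, lost under median scaling and with a spread shared by all groups). At day 42 it had 8.69, 9.13 and 9.56 in ligated hearts and 9.37, 9.69 and 9.92 in sham hearts (-0.56 ± 0.15, adjusted p = 0.0242), a call lost without ligated replicate 3 or any of sham replicates 1, 2 and 3 (adjusted p up to 0.0535) and with brightness as a covariate (0.602). On day 6 its difference was -0.14 ± 0.16. Ugp2, which makes UDP-glucose for glycogen, had differences of -0.43 ± 0.17, -0.65 ± 0.20 and -0.55 ± 0.21 on the 3 days, with adjusted p-values of 0.0686, 0.0569 and 0.0877. It passed at day 1 without ligated replicate 1 or 2 or sham replicate 3, at day 6 without ligated replicate 1 or 3 or sham replicate 3, and at day 42 without ligated replicate 1, with values down to -0.53, -0.78 and -0.69. Gyg1, the primer of glycogen, and Pgm1, phosphoglucomutase, did not pass on any day, with log2 fold changes between 0.14 and 0.31 for Gyg1 and between -0.05 and 0.22 for Pgm1.

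The balance between isoenzymes was compared within each array as the log2 ratio of 2 probes, taken from the quantile-normalised values. Under median scaling Pfkp over Pfkm at day 1 and Pygb over Pygm at day 42 passed as well, and the day 42 difference of Ldha over Ldhb turned from higher to lower (-0.066). This comparison was added after the data had been seen, over all 10 pairs of related genes that were tested together. The level of a ratio mixes the response of 2 probes, so only its difference between groups is given. Of 29 comparisons adjusted together, 6 of 10 passed at day 1, 6 of 10 at day 6 and 0 of 9 at day 42, where 1 had an unadjusted exact permutation p under 0.05. The ratios use the same probe values as the gene tests above, so these counts are not separate support. No share over other pairs of probes was taken.

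The largest difference was in Eno2 over Eno3 at day 6, where the log2 ratio averaged -2.95 ± 0.91 in ligated hearts and -5.42 ± 0.31 in sham hearts (SD, n = 5 and 6), a difference of 2.48 with no overlap (two-sided exact permutation test, adjusted p = 0.00897). Its unadjusted p of 0.00216 is the smallest that such a test can give for these group sizes. At day 1 the same ratio differed by 1.39, again with no overlap (adjusted p = 0.00897, exact permutation test). Eno1 over Eno3 differed by 2.22 at day 6 with no overlap, and by 1.06 at day 1, where the adjusted p of 0.0471 from the exact permutation test was lost with the series matrix values (0.0514) and without 9 of the 12 arrays in turn, namely ligated replicates 2 to 6 and sham replicates 2, 3, 4 and 6 (up to 0.0852). Ldha over Ldhb averaged -1.02 ± 0.36 in ligated hearts and -1.80 ± 0.33 in sham hearts at day 6 (difference 0.78, no overlap). At day 1 it differed by 0.46, with an adjusted p of 0.0285 from the exact permutation test that was lost with the series matrix values (0.0538) and without ligated replicate 3 or 4 or any of sham replicates 1, 2, 4 and 6 (up to 0.0575).

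Pfkp over Pfkm was 1.26 higher in ligated hearts at day 6, with no overlap (adjusted p = 0.00897, exact permutation test). Pfkl over Pfkm was 1.16 higher at day 1, and lost its call on leaving out any 1 of the 6 sham hearts (adjusted p up to 0.0565, exact permutation test). Pygl over Pygm was 1.43 higher at day 1 and 1.23 higher at day 6, though Pygl was detected in only 3 of 6 sham hearts on either day, and without ligated replicate 2 the day 6 difference was 0.72. Slc16a3 over Slc16a1 was 1.62 higher at day 1 and 1.26 higher at day 6. The ratios of Pygb to Pygm, Aldoc to Aldoa and Pdk1 to Pdk2 did not pass on any day, with differences between -0.46 and 0.50. A ratio shows that the pair changed unequally, and does not say which of them moved.

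**Figure D4:**
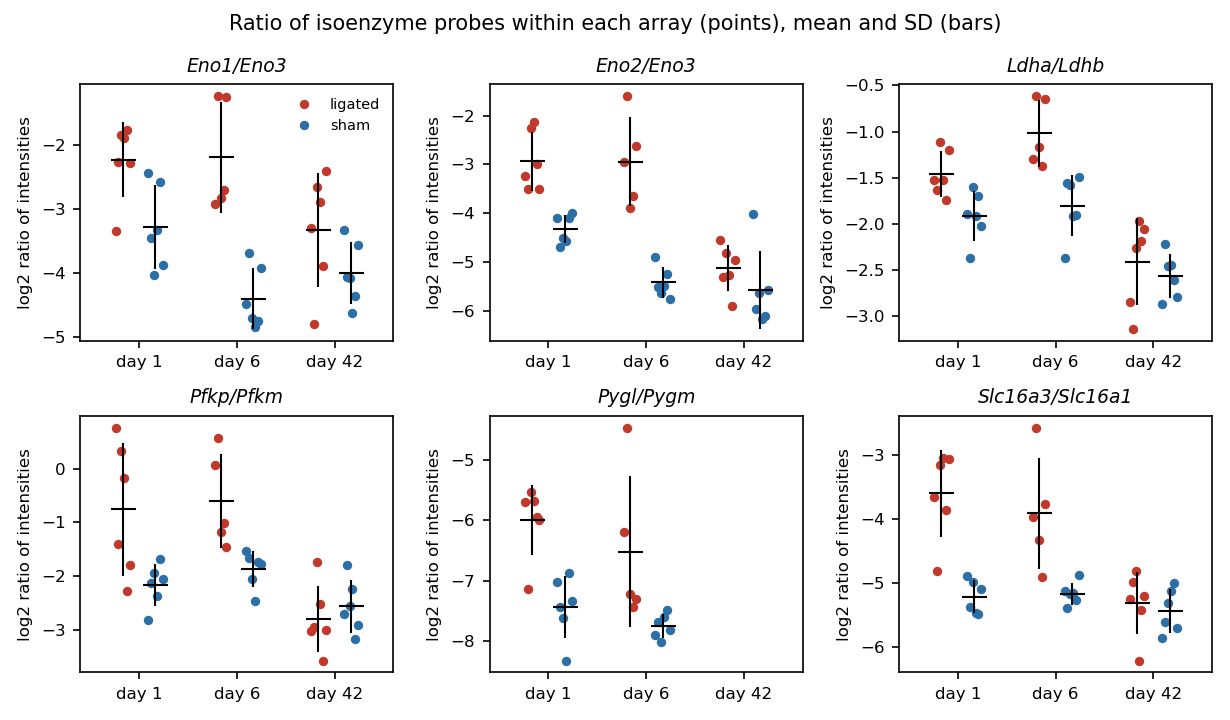
Log2 ratio of the intensities of 2 isoenzyme or related transporter probes (y axis) on each array at days 1, 6 and 42 (x axis), ligated in red and sham in blue, with the mean as a horizontal mark and the SD as a bar. At day 6 the 5 ligated hearts lie above every sham heart for Eno1/Eno3, Eno2/Eno3, Ldha/Ldhb, Pfkp/Pfkm and Pygl/Pygm, and at day 42 the groups overlap in every panel drawn. Pygl was not tested at day 42, so its panel holds no points there, and the level of a ratio has no meaning of its own.

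The effect of ligation itself was compared between days over all 35 arrays. From day 1 to day 6, 0 of 32 genes differed in limma at an adjusted p under 0.05, with 4 at an unadjusted p under 0.05, against 0.449% of all probes called lower, 0.212% called higher and 0.661% in all. From day 6 to day 42, 3 of 31 genes differed, all towards a lower effect, against 3.21% of probes called lower, 3.82% higher and 7.03% in all. The ligation effect on Eno2 was -0.08 at day 42 against 0.78 at day 6 (change -0.86 ± 0.24, adjusted p = 0.0274), and that on Pfkp was -0.15 against 0.73 (change -0.88 ± 0.27, adjusted p = 0.0388). The effect on Phka1 was -0.93 at day 42 against 0.11 at day 6 (change -1.04 ± 0.29, adjusted p = 0.0256).

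From day 1 to day 42, 3 of 31 genes had a higher effect and 1 a lower one, against 4.7% and 4.27% of all probes and 8.97% in all. The effect on Slc2a4 was -0.16 at day 42 against -1.19 at day 1 (change 1.02, adjusted p = 0.0301), and that on Gcgr was -0.11 against -1.42 (change 1.31, adjusted p = 0.0232). The effect on Gpi was 0.19 at day 42 against -0.27 at day 1 (change 0.46, adjusted p = 0.0279), a change whose sign turned under median scaling (-0.21). Eno2 had an effect of -0.08 at day 42 against 0.77 at day 1 (change -0.85, adjusted p = 0.0269). Slc16a3 had effects of 1.75, 1.68 and 0.76 on the 3 days, and its change from day 6 to day 42 did not pass (adjusted p = 0.104). With brightness as a covariate 0 of these 7 changes passed, nor did any other of these genes. The changes of Slc2a4, Gpi and Gcgr were also lost under median scaling, those of Gpi, of Pfkp and of Eno2 from day 6 to day 42 under the replicate block (adjusted p up to 0.318, 0.15 and 0.271 over their alternatives), and those of Slc2a4 and Pfkp without the detection filter. Without ligated replicate 4 of day 1 or sham replicate 1 of day 42 the changes of Slc2a4, Gpi and Eno2 from day 1 to day 42 were lost, as were those of Slc2a4 and Gpi without ligated replicate 1 or 3 of day 1 (adjusted p up to 0.0633). The change of Eno2 from day 6 to day 42 was lost without ligated replicate 2 or sham replicate 3 of day 6 (up to 0.0681), and that of Pfkp without any of 11 of the 23 arrays, namely ligated replicates 1 and 2 and sham replicates 3, 4 and 6 of day 6 and ligated replicates 2, 5 and 6 and sham replicates 2, 3 and 4 of day 42 (up to 0.0811).

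Other genes of glucose metabolism outside the 39 were counted over 5 further lists of 81 genes, of which 62 were annotated. At day 1, 14 of 47 tested fell in ligated hearts and 5 rose, at day 6 5 of 47 fell and 1 rose, and at day 42 5 of 44 fell and 1 rose, with median log2 fold changes of -0.21, -0.13 and -0.06. Over all probes, 15.6% were called lower and 13.1% higher at day 1, 5.91% and 5.44% at day 6, and 7.76% and 7.33% at day 42, the background for each list below. The pyruvate and lactate list held the most calls, with 7 of 12 lower at day 1, 2 of 12 lower at day 6 and 3 of 11 lower at day 42, and 0 higher. The pyruvate dehydrogenase phosphatases that switch the complex on, Pdp2 and Pdp1, fell by 0.93 and 0.70 on the log2 scale at day 1 (adjusted p = 0.00114 and 0.00403), and Dld, a subunit of the complex, fell by 0.58. At day 6 Mpc2, a subunit of the mitochondrial pyruvate carrier, fell by 0.73, and Ldhd, the D-lactate dehydrogenase, fell by 0.79. At day 42 Pdhb, Pdp1 and Dld fell by 0.49, 0.67 and 0.85.

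In glycogen regulation and debranching, 2 of 10 genes fell and 2 rose at day 1, 2 of 9 fell at day 6, and 1 of 10 fell and 1 rose at day 42, with day 1 shares near the background in both directions. Phkg1, the catalytic subunit of muscle phosphorylase kinase, was detected in 0 of 6 ligated and 6 of 6 sham hearts at day 1, at measured means of 5.38 and 6.64, and was at least 1.72-fold lower in ligated hearts (adjusted p = 0.000557). That bound sets the sham mean against the lowest signal detected on each ligated array. The gene fell by 0.84 at day 6 (3 of 5 ligated against 6 of 6 sham hearts detected) and by 0.65 at day 42 (1 of 6 against 5 of 6). With most ligated arrays below detection at day 42, the size of that fall is uncertain. The sham arrays alone were enough for Phkg1 to pass the detection filter on each day, so its p-value is not separate support for a fall. Gsk3b, the kinase that inhibits glycogen synthase, was 0.74 ± 0.13 higher at day 1 and 0.74 ± 0.13 higher at day 42 (adjusted p = 0.00228 and 0.0033). Prkaca, the catalytic subunit of cyclic AMP-dependent kinase, fell by 0.46 at day 6. Gsk3a was called higher at day 1 but was detected in 0 of 6 sham hearts, and its lower bound was under 1. It passed the detection filter through the ligated arrays alone.

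Among other glycolytic enzymes, 2 of 5 rose at day 1, 1 of 5 at day 6 and 0 of 4 at day 42, where 1 had an unadjusted p under 0.05 in limma. Hk3, a hexokinase known from blood cells, was detected in 5 of 6 ligated and 0 of 6 sham hearts at day 1 and was at least 1.66-fold higher (adjusted p = 0.00963). At day 6 it was detected in 5 of 5 ligated and 0 of 6 sham hearts and was at least 1.81-fold higher (adjusted p = 0.012). The macrophage markers given above moved the same way, and their part in this was not tested. The ligated arrays alone brought Hk3 through the detection filter on both days, so its p-values are not separate support for the rise. Adpgk, a glucokinase that uses ADP, rose by 0.39 at day 1.

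In uptake and insulin signalling, 2 of 10 genes fell at day 1, 1 of 11 at day 6 and 1 of 10 at day 42, and 0 rose, so that the shares lower lay near the background. They were the kinases Akt2 (-0.60 ± 0.11, adjusted p = 0.00276) and Akt1 (-0.55 ± 0.13, adjusted p = 0.0076) at day 1, the insulin receptor substrate Irs1 at day 6 (-0.67 ± 0.16, adjusted p = 0.0221, detected in 1 of 5 ligated and 6 of 6 sham hearts) and Prkaa1, a catalytic subunit of AMP-activated kinase, at day 42 (-0.61 ± 0.19, adjusted p = 0.0449, detected in 1 of 6 ligated and 6 of 6 sham hearts). The sham arrays alone were enough for Irs1 and Prkaa1 to pass the detection filter, so the sizes of their falls are uncertain. In the pentose phosphate, hexosamine and polyol branches, 3 of 10 fell and 1 rose at day 1, and none of 10 at day 6 or of 9 at day 42 passed in limma, with 4 and 0 at an unadjusted p under 0.05. Sord and Akr1b1, the 2 enzymes of the polyol route from glucose to fructose, fell by 0.54 and 0.40 at day 1 (adjusted p = 0.00586 and 0.00698), and Rpia, of the pentose phosphate route, fell by 0.41.

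A look across the promoters of the listed genes placed the 4 windows shown above among the rest. RefSeq held 41 windows of 300 bases for 36 of the 39 genes, and none was found there for Slc2a4, Pgk1 and Gpd1. ACGTG lay on either strand in 21 of these 41 windows, against 19.3% of all 33469 windows, GCGTG in 17 against 29.7%, and CACGTG in 5 against 6.42%. At least 1 of the ACGTG and GCGTG cores lay in 28 of the 41, against 41.6% of all windows. By gene, 27 of the 36 listed genes with a window held a core. Of the 20 genes called on any day, 19 had a window, and 14 of these held a core, Eno2, Phka1, Pygl, Pygb, Pfkm and Pygm among them. That share lay near the share of all listed genes. The 5 without one were Slc16a3, Eno3, Gcgr, Pgam2 and Hk2. A match describes the letters of the window only.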

How the data were processed

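Left ventricular RNA was measured on 35 Illumina BeadChip arrays, labelled with Cy3. For each day a deposited table gives, per the file headers, the scanner intensity of every probe and its detection p-value against negative control beads. Bead numbers are deposited as another value. The intensity had not been normalised or corrected for background, as its values show. BeadStudio 3.3 and GenomeStudio are named in the submitters' processing notes. The deposited series matrix, an alternative here, holds intensity already corrected and normalised by the authors, with a method not given in the sources used here. One array of day 6 (4 columns) matched no sample and was not used.

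Of 22523 probes, 13793 had a gene symbol in the supplied annotation. Intensities were corrected by normexp (offset 16, controls inferred from the detection p-values), quantile-normalised by day and log2-transformed, and probes with a detection p under 0.01 on at least 5 arrays of the day were kept. Ligated and sham arrays were compared with limma 3.58.1 (lmFit and eBayes, R 4.3.3), with the Benjamini-Hochberg adjustment across the probes kept and a threshold of 0.05. Changes of effect between days were contrasts in a single fit of 6 group means. The tests were checked on simulated data. Precision is limited by the number of arrays, and each probe was read from a median of 30 to 42 beads per array.

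One probe stands for a gene, the brightest on average over the day. Values by array are given for at most 8 genes per day and contrast by smallest p, with the glucose transporters, Hk1, Hk2, both lactate dehydrogenases, Gys1 and Pygm added, where measured, whatever their p, and up to 3 called genes are named per further list. Genes and lists were chosen with earlier results of these data known. Replicate numbers of the labels were not taken as pairs in the main fit. Correlations of same-numbered deviations ran from -0.14 to 0.19 at day 1, -0.27 to 0.24 at day 6 and -0.20 to 0.34 at day 42. Such correlations cannot exclude pairing, and the replicate block is given as an alternative. The alternatives changed the background correction, the scaling, the source of values, the detection filter, the estimate of spread, the blocks, the brightness covariate and the arrays included.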

Additional observations from a re-analysis of the deposited data

Results flagged for a closer look

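Within groups of 5 or 6 arrays, 13 of the 190 groups examined held a value that stood apart from the others by Dixon's ratio, where chance gives about 1 in 20. The 3 low values Eno3 (11.03), Gpi (13.46) and Tpi1 (14.33) at day 42 came from the same array, sham replicate 1, without which Eno3 passed at day 42 and the change of Gpi from day 1 to 42 was lost. Sham replicate 3 of day 6 was low for Aldoc (5.89) and high for Hk2 (8.98). Ligated replicate 1 was low for Eno1 at day 6 (7.48) and for Gcgr at day 42 (7.65), and ligated replicate 3 of day 42 was high for Gpd1 (9.70). Sham replicate 5 was low for Pfkl at day 42 (7.25) and for Pygb at day 1 (11.88). At day 1, sham replicate 1 was high for Pgk1 (13.54), and ligated replicates 2 and 6 were low for Pygl (6.22) and Slc16a1 (11.35).

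The ligation effect differed between days for 6 genes. Measured at day 42 minus day 6, the change was -0.88 for Pfkp, -1.04 for Phka1 and -0.86 for Eno2. Measured at day 42 minus day 1, it was 0.46 for Gpi, -0.85 for Eno2, 1.02 for Slc2a4 and 1.31 for Gcgr. Of these 7 changes, 0 passed in limma with the brightness of the arrays as a covariate, and array brightness differed between the operations at day 42. Its part in these changes was not tested.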

How the results depend on the processing

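Under every alternative and without each array in turn, the calls held for Slc2a4, Pgam2, Eno2, Slc16a3, Pygm, Pygl, Phka1 and Gcgr at day 1 and for Eno3 and Slc16a3 at day 6, each with the direction of its call. For Pygl and Phka1 this covers the alternatives in which they were tested. They were not tested where detection on every array was required. No call of day 42 held under all alternatives and left-out arrays. With brightness as a covariate, 8 genes were called lower and 4 higher at day 1, against 7.99% and 6.64% of all probes. At day 6 it gave 7 lower and 4 higher, against 8.84% and 8.01%. At day 42 it gave 0 lower and 0 higher in limma, where 3 of all probes were called. With this covariate 0 changes of effect passed from day 6 to 42 or from day 1 to 42, and the cause was not tested. Signs turned there for Ldhb (0.024), Aldoa (0.0047), Eno1 (-0.24), Eno2 (0.11) and Pdk2 (0.27) at day 42 and for Pgm1 (0.22) and Slc16a1 (-0.022) at day 1. Median scaling gave 6 lower and 7 higher at day 1, 2 and 1 at day 6, and 20 and 0 at day 42, beside the shares over all probes given above. It gave 11 changes from day 1 to 42, where 4506 of 7824 probes were called. Signs turned under it for Eno1 (-0.38), Gpi (-0.26), Gyg1 (-0.28), Pfkl (-0.33), Pfkm (-0.41), Pgm1 (-0.44), Tpi1 (-0.14) and Ldha/Ldhb (-0.066) at day 42, Pfkl (-0.0079) at day 6, Pgk1 (0.038) and Pgm1 (0.19) at day 1, and the change of Gpi from day 1 to 42 (-0.21). No background correction gave 5 higher at day 6 (5.82% of all probes), 1 change from day 1 to 6 (68 of 8017 probes) and -0.16 for Slc16a3/Slc16a1 at day 42. A spread shared by all groups gave 5 higher at day 6 (9.24% of all probes). The series matrix turned Aldoc/Aldoa at day 1 (-0.047) and Gapdh at day 42 (0.0093), the position block turned Pfkl at day 6 (-0.012), and the dimmest Gcgr probe gave 0.060 at day 42. The position block, of positions A to F against G to L, gave 8 genes lower and 3 higher at day 6. Over all probes it gave 1207 calls in place of 964, with 7.3% lower and 6.91% higher.

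With the replicate number as a block, 14 genes were called lower and 3 higher at day 1, 3 and 1 at day 6, and 5 and 2 at day 42, with 1 change from day 6 to 42; over all probes it gave 2100 calls at day 1, 341 in place of 964 at day 6, and 1212 at day 42. Of the pairs, 2 of 6, 1 of 5 and 2 of 6 correlated best with their own number at days 1, 6 and 42. All probes gave 2364 calls at day 1, 2042 under median scaling and 1205 with brightness as a covariate; 132 and 1431 at day 6, and 1627 with a shared spread and 563 without the detection filter; and 4710 and 3 in place of 1260 at day 42.

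Leaving out 1 array gave 9 to 17 lower and 3 to 5 higher genes at day 1 (9 without ligated replicate 3, 5 higher without ligated replicate 6) and 1 to 5 lower at day 42, with 1 without sham replicate 3 and 2 without ligated replicates 3, 5 or 6 or sham replicates 1 or 4. The shares over all probes moved too. At day 1 they ran from 10.2% to 19.3% lower and from 9.31% to 16.7% higher, and at day 42 from 3.95% to 11.2% lower. At day 6 leaving out 1 array gave 4 to 9 lower and 3 to 4 higher genes, against 3.12% to 7.45% and 3.23% to 6.67% of all probes. There 9 were lower without ligated replicate 3, and 4 without ligated replicate 5 or sham replicates 4, 5 or 6. Changes numbered 0 to 1 from day 1 to 6 (1 without ligated replicate 2 of either day). They numbered 1 to 6 from day 6 to 42, with 1 without ligated replicate 2 or sham replicate 3 of day 6, 5 without ligated replicate 3 of day 6 or sham replicate 5 of day 42, and 6 without ligated replicate 4 of day 6. They numbered 1 to 7 from day 1 to 42, with 1 or 2 without ligated replicates 1, 3 or 4 of day 1 or sham replicate 1 of day 42, and 7 without ligated replicates 2, 5 or 6 of day 1. Over all probes, 25 to 106 of 8017 changes were called from day 1 to 6. From day 6 to 42 it was 339 to 786 of 7984, and from day 1 to 42 it was 166 to 1080 of 7824. Values that crossed 0 ran from -0.19 to 0.0086 (Aldoa), -0.066 to 0.046 (Gpi), -0.098 to 0.16 (Pfkl) and -0.030 to 0.33 (Phka1) at day 6. At day 42 they ran from -0.088 to 0.027 (Gapdh), -0.27 to 0.049 (Gcgr), -0.13 to 0.039 (Pdk2), -0.011 to 0.26 (Pfkl), -0.032 to 0.21 (Pfkm), -0.017 to 0.18 (Pgm1) and -0.20 to 0.22 (Pfkl/Pfkm), and at day 1 from -0.17 to 0.076 (Pgm1), -0.025 to 0.13 (Aldoc/Aldoa) and -0.15 to 0.0039 (Pygb/Pygm). The difference in array brightness at day 6 ran from -11.9 to 35.6 units. Bright probes (Ldhb, near the top of the scanner's range, and also Gapdh and Tpi1) and transcripts below detection (Slc2a1 and the Pfkfb genes) limit what the arrays can show.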
